A study of Homo sapiens with 6 samples.

Results

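MDAMB468 is an established human triple negative breast cancer cell line, which lacks oestrogen receptor, progesterone receptor and ERBB2 amplification and carries extra copies of EGFR. The untreated control cells of the study, labelled wild type, were taken as a description of this line without treatment. They are 3 of the 6 samples of the series, control replicates 1, 2 and 3, chosen by their labels alone. The other 3 samples, which overexpress IGFBP2, were not used. RNA was read from the 3′ end of each polyadenylated transcript, and the deposited table gives 10487 genes. The level of a gene is given in CPM, that is, its reads scaled to a common library size. Since a transcript gives reads from its end only, CPM was compared between genes without dividing by transcript length. Replicates 1, 2 and 3 had 4579587, 3530444 and 2497353 reads on these genes, so that 1 read was worth 0.222, 0.278 and 0.404 CPM. A gene without a row is called "not among the genes analysed here". Such a gene may have failed the authors' filter of an average above 5 CPM in at least 1 condition, and no listed gene had 0 reads in any control library. A control mean under 5 CPM was found for 353 listed genes, which by this filter would be listed only through the other 3 samples.

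EGFR is the receptor tyrosine kinase through which epidermal growth factor and its relatives drive the RAS and PI3K pathways, and basal-like breast cancers often express it at high levels. Basal-like cells are known for keratins of the basal mammary layer, while luminal cells carry simple-epithelium keratins and hormone receptors. The insulin-like growth factor (IGF) binding proteins hold IGFs outside the cell and set how much of them reaches the IGF receptor.

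The median gene had a mean of 30.7 CPM. In all, 1929 genes (18.4%) had a mean of 100 CPM or more, and 113 genes had 1000 CPM or more. The 100 most abundant genes held 29.6%, 28.8% and 29.7% of the reads in control replicates 1, 2 and 3. Of these 100 genes, 46 encode ribosomal proteins and 11 lie on the mitochondrial genome. The 20 most abundant genes included 7 mitochondrial genes and 8 ribosomal protein genes. MT-ND4, a subunit of respiratory complex I, came first, with 12062, 13271 and 13982 CPM. It was followed by MT-CO3, MT-ATP6 and MT-ND3, with means of 11422, 11295 and 10272 CPM, and, further down, by MT-CO2, MT-ND2 and MT-CYB, at 7960, 7782 and 7588 CPM. All 13 listed mitochondrial genes together held 7.82% ± 0.646 of reads (SD, n = 3). The 5 genes of the top 20 outside both classes were PTMA, HSP90AA1, CHCHD2, IER3 and the nuclear long noncoding RNA MALAT1. PTMA, which encodes prothymosin alpha, had 8040, 6443 and 7456 CPM. IER3, an immediate early gene with a role in survival signalling, had 5184, 4931 and 8048 CPM, and was highest in replicate 3. CHCHD2, which encodes a mitochondrial protein and lies near EGFR, had 4508, 4541 and 5196 CPM. MALAT1 had 6052, 3829 and 3974 CPM. HSP90AA1, a cytosolic chaperone, had 5103, 3403 and 5440 CPM and was lowest in replicate 2.

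**Figure D1:**
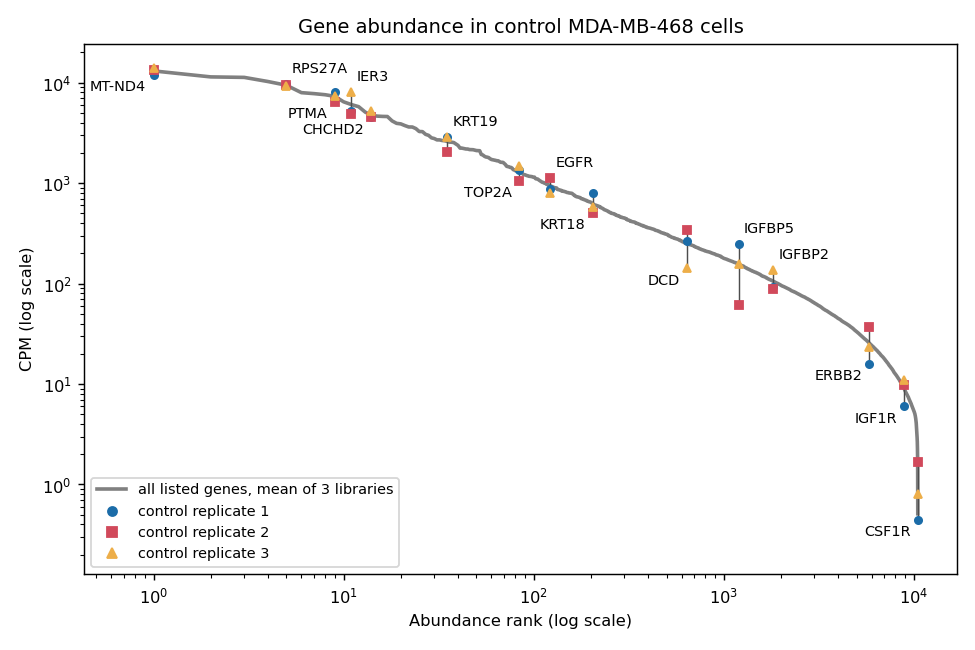
Mean CPM of all 10487 listed genes (grey line, log scale) against abundance rank (log scale), with the 3 control libraries shown as points for named genes. Levels ran from 13105 CPM for MT-ND4 down to under 1 CPM for genes such as CSF1R. EGFR took rank 122, and IGFBP5 spread further between its libraries than IGFBP2 beside it.

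The ribosomal protein genes made up 13.9% ± 0.686 of reads (SD, n = 3), over 84 genes whose symbols mark them as ribosomal proteins or their close relatives. Their median was 1179 CPM. RPS27A, a fusion of ubiquitin with a small-subunit protein, was the most abundant, with 9713, 9408 and 9187 CPM. RPS24 had 6509, 6441 and 6405 CPM, which was among the smallest spreads of any gene of 100 CPM or more. RPS12 and RPL37A had means of 5772 ± 111 and 5096 ± 171 CPM, and RPL27A, RPS19, RPS4X and RPS3 followed at 4606, 4162, 3939 and 3888 CPM. Many genes for ribosomal proteins and translation factors are known to start at a C followed by a run of pyrimidines, the 5′ terminal oligopyrimidine (TOP) tract, through which mTOR signalling controls their translation. The annotated starts of the 6 most abundant ribosomal protein genes with a promoter in the RefSeq table are shown for this reason, with 15 bases before the start and 15 from it (RefSeq, GRCh38.p14, plus strand). Capitals mark the run of C and T that begins at the annotated start.
RPS27A (chr2:55231888-55231917): taaggagtgacacacaagacccagactctt
RPS24 (chr10:78033848-78033877): cggcgaatcgtggttCTCTTTTCCTCCTTg
RPS12 (chr6:132814554-132814583): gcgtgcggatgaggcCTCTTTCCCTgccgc
RPL37A (chr2:216498829-216498858): gcaccgcgtctcttcCTTTCTgggctcgga
RPL27A (chr11:8682777-8682806): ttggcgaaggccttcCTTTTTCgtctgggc
RPS19 (chr19:41860240-41860269): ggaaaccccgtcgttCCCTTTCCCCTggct
All but RPS27A, whose annotated start is an A, begin with such a run. A C followed by 4 bases that are each C or T stood at the annotated start of 65.7% of the 67 ribosomal protein genes that had a promoter. The same was found for 47.8% of the 67 matched genes among the 100 most abundant, for 21.9% of the 32 of these that are not ribosomal, and for 5.81% of all 8551 matched genes. In the 27305 promoters of the RefSeq table as a whole it was 4.04%. These are matches of letters at an annotated start, and the start used in these cells was not measured.

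EGFR had 869, 1136 and 805 CPM in control replicates 1, 2 and 3, a mean of 937 ± 176 CPM (SD, n = 3), which placed it at rank 122 of 10487. The gene (ENSG00000146648) lies at chr7:55019017-55211628 on the plus strand of GRCh38. The other listed members of its family were far lower. ERBB3, which signals through its partners, had 23.98, 39.2 and 29.5 CPM. ERBB2 had 15.8, 37.0 and 23.4 CPM, and ERBB4 was not among the genes analysed here. EGFR was above ERBB2 by 55.1-fold, 30.7-fold and 34.3-fold in replicates 1, 2 and 3, so the order was the same in each library although the size was not. The 4 listed ligands of the family were all at low levels. TGFA, a ligand of EGFR, had 20.6, 16.7 and 16.2 CPM. AREG, also a ligand of EGFR, had 22.6, 7.79 and 8.90 CPM, HBEGF had 16.2, 7.23 and 6.87 CPM, and BTC had 7.77, 3.34 and 10.9 CPM. The summed receptors exceeded the summed ligands by 13.5-fold, 34.6-fold and 20.02-fold. EGF, EREG, EPGN, NRG1, NRG2 and NRG4 were not among the genes analysed here.

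Of 14 genes sought around EGFR on chromosome 7, 12 were listed, and VSTM2A and SEPTIN14 were not among the genes analysed here. Of the 12 listed genes between 54752250 and 56106476, a stretch of 1.35 Mb, 10 had 100 CPM or more (83.3%), against 18.4% of all listed genes. The outermost genes of this stretch, SEC61G and CHCHD2, are also its most abundant. CHCHD2 and SEC61G, a subunit of the translocon of the endoplasmic reticulum (ER), had means of 4749 ± 388 and 2657 ± 887 CPM. CCT6A, a subunit of the chaperonin TRiC, had 1212 ± 176 CPM. LANCL2, which lies next to EGFR, had 598, 326 and 502 CPM. PSPH, the last enzyme of serine synthesis, had 211, 271 and 212 CPM. NIPSNAP2, SUMF2, MRPS17 and VOPP1 lay between 112 and 179 CPM. ZNF713 and PHKG1 were low, at 11.4 and 5.89 CPM. The 12 genes held 1.08% ± 0.0719 of all reads and 23.7% of the reads of chromosome 7. The extent of the amplified segment was not measured here. The median level in a window of 11 neighbouring listed genes, a window chosen after the values were seen, was 140 CPM when centred on EGFR, and the median over 10219 such windows of the nuclear genome was 31.0 CPM.

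Of 43 other receptor tyrosine kinases sought, 22 were listed, with a median of 12.5 CPM. DDR1, a receptor for collagen, was the most abundant of them, with 425, 470 and 566 CPM. EPHB4, an ephrin receptor, had 146, 140 and 143 CPM and hardly differed between libraries. EPHB3 and PTK7 had means of 130 ± 36.5 and 129 ± 26.6 CPM. MET, the receptor of hepatocyte growth factor, had 154, 81.5 and 118 CPM. EGFR stood above MET by 5.65-fold, 13.95-fold and 6.82-fold in the 3 libraries. AXL, FGFR2, PDGFRA, PDGFRB and RET were not among the genes analysed here.

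In the IGF axis, IRS2, an adaptor below the insulin and IGF receptors, had the highest level, with 271, 256 and 227 CPM. IGFBP5 had 249, 61.2 and 158 CPM, a mean of 156 ± 93.8 CPM (SD, n = 3) at rank 1196. IGFBP2 had 93.5, 87.3 and 136 CPM, a mean of 106 ± 26.4 CPM at rank 1824. The levels of these binding proteins did not keep their order. IGFBP5 was above IGFBP2 by 2.66-fold in replicate 1 and by 1.16-fold in replicate 3, and the ratio was 0.701 in replicate 2. IGFBP4 had 91.0, 82.6 and 106 CPM, below IGFBP2 in each library. IGFBP6 had 0.888, 7.23 and 2.43 CPM. The receptors were lower than IGFBP2, IGFBP4 and IGFBP5. IGF2R, which clears IGF2, had 36.6, 31.1 and 34.0 CPM, INSR had 21.5, 16.4 and 4.85 CPM, and IGF1R had 5.99, 9.74 and 10.9 CPM. The genes for both growth factors, IGF1 and IGF2, were not among the genes analysed here.

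**Figure D2:**
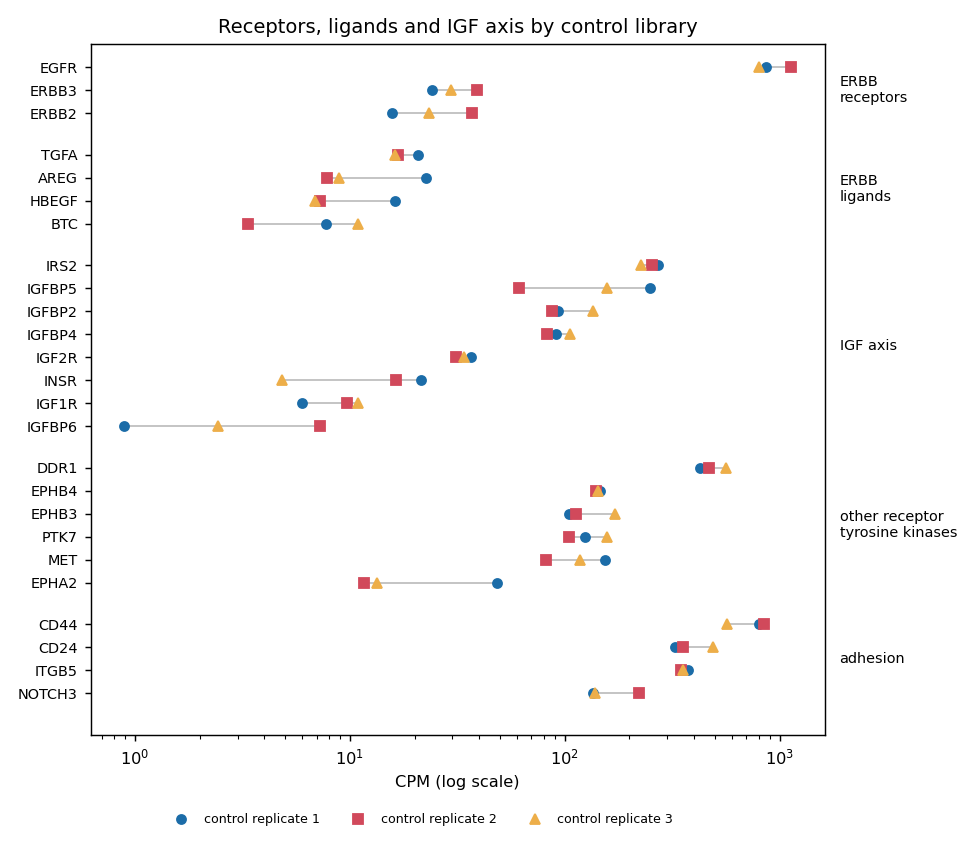
CPM of receptors, ligands and IGF axis genes (log scale) in each control library, 1 point per library. EGFR stood above 800 CPM in all 3 libraries and the other ERBB receptors under 40 CPM, while IGFBP5, INSR, IGFBP6 and EPHA2 had the widest gaps between libraries of the genes drawn.

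Keratins of both the luminal and the basal class were present. KRT19 was the most abundant luminal keratin, with 2900, 2041 and 2882 CPM. KRT7 had 758, 888 and 775 CPM. KRT18 had 794, 510 and 575 CPM, a mean of 626 ± 149 CPM at rank 204, and its partner KRT8 had 721, 331 and 434 CPM. Among 12 listed keratins of other types, KRT81, a hair keratin, had 1076, 2876 and 2519 CPM, and its near copy KRT86 had 17.8, 107 and 23.1 CPM. Reads that both copies share could be assigned to neither or either, so these 2 values are uncertain. KRT5, the basal keratin, had 471, 249 and 317 CPM. Its partner KRT14 had only 18.9, 7.23 and 9.30 CPM. KRT17 had 68.6, 85.1 and 210 CPM and was highest in replicate 3, and KRT23 had 164, 82.0 and 136 CPM. The ratio of the summed luminal keratins to the summed 12 others was 2.26, 1.025 and 1.32 in replicates 1, 2 and 3. KRT8 and KRT18 together exceeded KRT5, KRT14 and KRT17 together by 2.71-fold, 2.46-fold and 1.88-fold. KRT6A and KRT6C were not among the genes analysed here.

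Of 20 luminal and hormone receptor genes, 9 were listed, and ESR1, PGR and FOXA1 were not among the genes analysed here. GATA3, a transcription factor of luminal mammary cells, was the most abundant of the 9, with 119, 163 and 167 CPM. XBP1 had 53.7, 116 and 50.1 CPM, VDR 64.2 ± 6.498 CPM and KIT 31.5, 41.2 and 86.9 CPM. Of 27 basal and myoepithelial genes, 19 were listed. SFN, the epithelial 14-3-3 protein, had 1376, 864 and 1991 CPM, and S100A2 had 1622, 1077 and 1269 CPM. The kallikrein KLK5 had 422, 429 and 318 CPM. FOXC1, a transcription factor used as a marker of basal-like breast cancer, had 203, 387 and 313 CPM. TP63, SOX10, ACTA2 and CNN1 were not among the genes analysed here.

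Junction genes of epithelial cells were listed for 20 of 21 sought. DSP, which encodes desmoplakin, had 687, 831 and 776 CPM. CLDN7 had 339, 385 and 397 CPM, EPCAM 384, 320 and 314 CPM and ELF3, an epithelial transcription factor, 214, 226 and 393 CPM. CDH1, which encodes E-cadherin, had 52.0, 82.9 and 84.1 CPM. Of 18 mesenchymal genes, 7 were listed, and ZEB1, ZEB2, SNAI1, SNAI2 and CDH2 were not among the genes analysed here. VIM, which encodes vimentin, was the most abundant, with 435, 274 and 92.6 CPM. S100A4 had 149, 178 and 115 CPM, TWIST2 29.9 ± 6.32 CPM and FN1 8.66, 24.5 and 25.1 CPM. VIM was above CDH1 in all 3 libraries, with a ratio of CDH1 to VIM of 0.119, 0.303 and 0.908.

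DCD encodes dermcidin, a peptide of sweat glands that is also made by some breast cancers. It had 266, 344 and 142 CPM, a mean of 251 ± 102 CPM at rank 638. KLK6, a kallikrein, had 480, 516 and 250 CPM and AZGP1, a secreted glycoprotein, had 244, 315 and 232 CPM. The other 6 listed secretory genes had lower means than these 3, from 10.4 to 60.1 CPM. SLPI, a protease inhibitor, had 27.1, 65.9 and 87.3 CPM. LCN2, an iron-carrier-binding protein induced in inflammation, had 25.1, 112 and 18.2 CPM. PIP, MUCL1 and SCGB2A2 were not among the genes analysed here.

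Markers of cells that the culture should not hold were nearly all missing from the genes analysed. Of 15 leukocyte markers, CSF1R alone was listed, with 2, 6 and 2 reads (0.444, 1.67 and 0.809 CPM). Of 10 fibroblast markers, COL1A1 alone was listed, at 13.8, 12.2 and 27.5 CPM. Of 8 endothelial markers, ENG alone was listed, at 14.7, 15.8 and 30.7 CPM. None of 6 genes that mark embryonic kidney cells of the HEK293 line was listed.

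**Figure D3:**
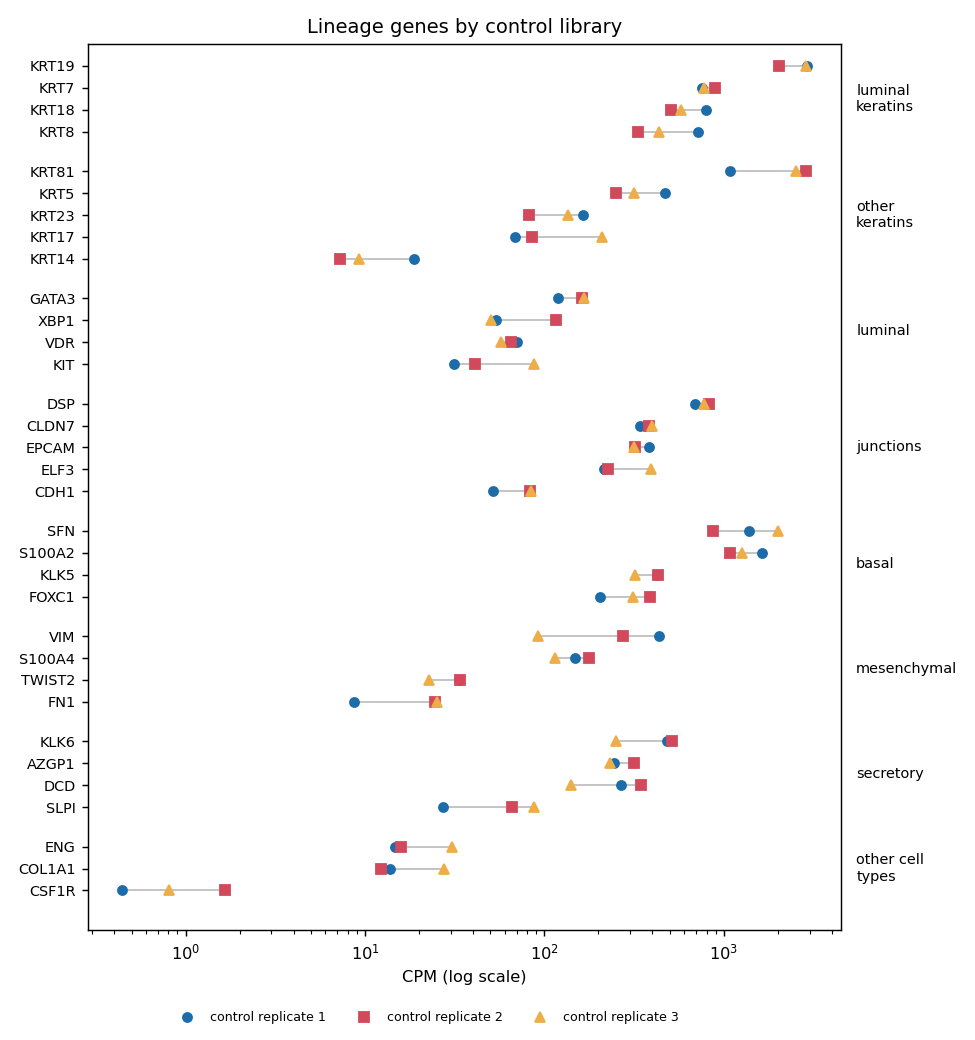
CPM of lineage genes (log scale) in each control library, 1 point per library. Keratins of both classes and junction genes lay above 50 CPM in most cases, while KRT14 and the markers of other cell types lay lower. KRT81, KRT17, VIM, SLPI and FN1 had wide gaps between libraries.

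Below the receptors, the RAS and MAPK core was listed nearly in full, with 22 of 23 genes and a median of 41.4 CPM. GRB2, the adaptor that couples receptors to RAS, had 151, 115 and 136 CPM. MAP2K2, a MAPK kinase, had 120 ± 12.5 CPM, CBL, a ubiquitin ligase that takes EGFR down, 112 ± 1.98 CPM and PTPN11 106 ± 16.1 CPM. Among 16 listed feedback and target genes of the pathway, IER3 came first and CCND1, which encodes cyclin D1, had 150, 133 and 94.2 CPM. MYEOV had 109 ± 15.2 CPM and SPRY2, a feedback inhibitor, 55.7 ± 7.004 CPM. FOSL1 had 71.9, 28.6 and 15.4 CPM and EPHA2 48.4, 11.7 and 13.3 CPM, both highest in replicate 1. In the PI3K, AKT and mTOR core, 28 of 30 genes were listed. Its most abundant member was the ribosomal protein gene RPS6, a substrate of the pathway, with 2535 ± 346 CPM. AKT2 had 319, 366 and 483 CPM and AKT1 had 146, 99.9 and 81.3 CPM, so AKT2 was above AKT1 in each library. PIK3R3, a regulatory subunit of PI3K, had 138 ± 21.3 CPM.

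MDAMB468 is known for the loss of RB1 and SMAD4. RB1 and SMAD4 were not among the genes analysed here. CDKN2A, which encodes the CDK inhibitor p16, had 191, 171 and 162 CPM. It was the most abundant of 22 listed tumour suppressors and cell cycle inhibitors, whose median was 45.6 CPM. RASSF1 and KMT2C had 94.7 ± 36.0 and 70.6 ± 13.6 CPM.

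Genes of the cell cycle were listed almost without exception. All 42 genes of the G2/M and mitosis list and 42 of 43 of the G1/S and replication list were listed, with medians of 111 and 57.9 CPM. TOP2A, the topoisomerase of mitotic chromosomes, had 1337, 1057 and 1471 CPM. CENPF had 576, 442 and 684 CPM, CKS1B 442 ± 21.1 CPM and PTTG1, which encodes securin, 461, 327 and 473 CPM. RRM1 and RRM2, the subunits of ribonucleotide reductase, had 231 ± 37.7 and 176 ± 62.9 CPM, MCM7, a helicase subunit, 220 ± 13.3 CPM and FEN1, a replication nuclease, 199 ± 67.9 CPM. Summed over the G2/M list the level was 7816, 5712 and 7545 CPM, and it was lowest in replicate 2.

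Glycolytic genes were abundant, with a median of 145 CPM over 19 listed genes. GAPDH had 3726, 2367 and 2877 CPM. ENO1 had 950 ± 99.5 CPM, GPI 800 ± 103 CPM and PKM 574, 399 and 719 CPM. LDHB was above LDHA by 1.10-fold, 2.30-fold and 2.03-fold, a comparison chosen after the values were seen. For the antioxidant genes that NRF2 controls, the median of 23 listed genes was 74.2 CPM. FTH1, the ferritin heavy chain, had 1477, 2278 and 1303 CPM, PRDX1 602 ± 117 CPM, TKT 322 ± 66.6 CPM and TALDO1 292 ± 10.98 CPM. In cholesterol and fatty acid synthesis, 26 of 30 genes were listed. FDPS had 423 ± 72.6 CPM, FASN 266, 328 and 476 CPM and SCD 237, 424 and 387 CPM.

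The surface receptors CD44 and CD24, which are used to tell breast cancer cell states apart, were both abundant. CD44 had 799, 849 and 569 CPM and CD24 had 325, 357 and 490 CPM. ITGB5, an integrin subunit, had 359 ± 14.1 CPM and NOTCH3 had 136, 222 and 138 CPM. Of 28 listed cytokine and TGF-beta receptors, none reached a mean of 100 CPM. TNFRSF12A and TNFRSF21 led with 94.3 ± 25.6 and 89.4 ± 8.31 CPM, before LTBR at 50.9 ± 5.68 CPM and IL10RB at 49.8 ± 7.81 CPM. Of 12 listed S100 genes, S100A2 came first, S100A6 had 1082, 1142 and 562 CPM, S100A11 792 ± 154 CPM and S100A16 509 ± 93.8 CPM. Among YAP and TEAD pathway genes, CCN2, a secreted target of YAP, had 295, 123 and 304 CPM, AMOTL2 118 ± 13.2 CPM, CCN1 117 ± 28.5 CPM and VGLL1 94.8 ± 45.8 CPM. MCL1, which protects cells from apoptosis, was the most abundant gene of the list of the BCL2 family and related genes, with 372, 413 and 296 CPM. PHLDA3, BID and GADD45A had means of 119, 93.05 and 88.1 CPM.

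Among genes used as references, ACTG1 had 4305, 2852 and 3320 CPM, ACTB 2240, 1587 and 2863 CPM, TUBA1B 2859, 1635 and 2203 CPM and RPLP0 2996, 2950 and 2392 CPM. EEF1A1, a translation factor that is among the most abundant transcripts of most cells, had only 481, 538 and 365 CPM. It has many near-identical processed copies in the genome, as do many genes for ribosomal proteins, actins, tubulins, ferritins and GAPDH, and how the authors' counting treated reads that match several places was not examined. The levels of these genes are uncertain for that reason, and those of mitochondrial genes, which have nuclear copies, too.

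The 3 control libraries were not equal. Over all listed genes, the log2 values of replicates 1 and 2, 1 and 3, and 2 and 3 had Pearson correlations of 0.950, 0.957 and 0.950 across 10487 genes. A gene was called varying where its highest library was over 2-fold its lowest and the exact 95% Poisson intervals of the reads in these 2 libraries lay apart. The intervals cover counting error only. The paper does not say whether molecular identifiers were used, so the reads may not be independent molecules. Varying genes numbered 1411, or 13.5% of all listed genes, and the rule is one of size, not a test. The highest library was replicate 1 for 391 of them (3.73% of all genes), replicate 2 for 629 (6.0%) and replicate 3 for 391 (3.73%). Without replicates 1, 2 and 3 in turn, the 1411 varying genes became 655, 570 and 727. The counts of single lists without a library, given below, are to be read beside these. Among the 1929 genes of 100 CPM or more, 89 varied, or 4.61%. The share fell with abundance. It was 23.4% for genes under 10 CPM, 18.7% at 10 to 30 CPM, 7.87% at 30 to 100 CPM and 4.59% at 100 to 300 CPM. The shares of single lists, given below, are to be read beside 13.5%, which was not matched to a list by abundance. The median coefficient of variation (CV) over all genes was 19.5%, where counting alone gave 9.92%. It was 31.7% for genes under 10 CPM, where counting alone gave 21.2%, and 12.9% for genes of 1000 CPM or more, where counting alone gave 1.29%.

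None of the 84 ribosomal protein genes and none of the 13 mitochondrial genes varied. Most of them are abundant, and few abundant genes varied at all. The share was 6.2% for genes of 1000 CPM or more and 4.26% for those of 300 to 1000 CPM. The 10 genes of 100 CPM or more with the smallest ratio between libraries were DENR, ACADVL, RPS24, CD63, AFG3L2, TMEM18, COLGALT1, PURA, GNAS and SDHA. Their ratios of highest to lowest library ran from 1.01 to 1.03. DENR, a factor of translation reinitiation, had 158, 158 and 157 CPM, and CD63, a membrane protein of lysosomes and exosomes, had 917, 927 and 932 CPM. The 10 largest ratios in this class belonged to IFI6, STC2, CASP14, HLA-B, VIM, RGS2, NDRG1, TRIB3, SLC1A6 and IGFBP5. CASP14, a caspase of epidermal differentiation, had 18.9, 178 and 105 CPM. RGS2, a brake on G-protein signalling, had 161, 45.3 and 212 CPM. NDRG1 had 53.1, 239 and 184 CPM, and SLC1A6, a glutamate transporter, 74.2, 254.8 and 315 CPM. Of the 5 genes EGFR, IGFBP2, IGFBP5, DCD and KRT18, the rule called IGFBP5 (4.07-fold) and DCD (2.43-fold) varying. EGFR (1.41-fold), IGFBP2 (1.56-fold) and KRT18 (1.56-fold) were not called.

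**Figure D4:**
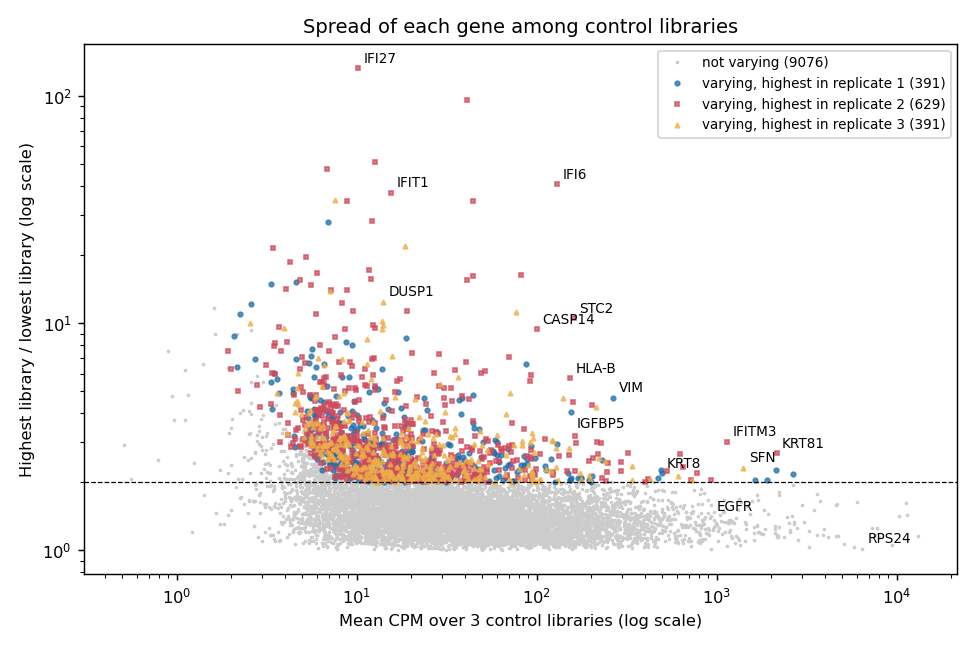
Ratio of the highest to the lowest control library (log scale) against mean CPM (log scale), 1 point per gene, coloured by the highest library where the gene varied. The dashed line marks 2-fold. Genes of the interferon response such as IFI27, IFI6 and IFIT1 had ratios of 37.6 to 133, while RPS24 lay near 1.

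Of all gene lists, that of genes induced by interferon had the largest share of varying members among lists of 10 or more listed genes. Type I and III interferons act through a complex of STAT proteins and IRF9, which binds the interferon-stimulated response element (ISRE) and turns on antiviral genes. Of 39 listed members of the interferon list, 33 varied, and all 33 were highest in replicate 2, where 6.0% of all genes varied in that direction. Their median level over the 39 genes was low, at 15.8 CPM. IFITM3, an antiviral membrane protein, was the most abundant, with 605, 1819 and 1022 CPM. IFI6 had 8.88, 364 and 17.4 CPM, a 40.9-fold ratio between the highest and the lowest library. IFI27 had 1 read in replicate 1, and 0.222, 29.5 and 0.809 CPM. IFIT1, an RNA-binding antiviral protein, had 1.11, 41.7 and 3.64 CPM. IFI6, IFI27 and IFIT1 were low in replicates 1 and 3 and high in replicate 2, while IFITM3 was abundant in all 3 libraries. The kinase EIF2AK2, which senses double-stranded RNA, had 140, 237 and 125 CPM, and LGALS3BP 66.8, 114 and 86.9 CPM. Summed over the list, the level was 1317, 4308 and 1853 CPM. The interferon list had 30, 4 and 31 varying genes without replicates 1, 2 and 3 in turn.

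To show the element in the promoters of these genes, the letters GAAANNGAAA, read on either strand as GAAANNGAAA or TTTCNNTTTC, were sought in the 250 bases before and 50 after each annotated start (RefSeq, GRCh38.p14). They were found for 21 of the 33 list members with a promoter (63.6%), for 2.67% of the 8551 matched genes and for 3.65% of all 27305 promoters. Stretches from the 5 list members with the largest ratios between libraries, among those whose matches all lie before the start, are shown in the direction of transcription, with the matches in capitals. In ISG15 a pair of matches overlaps, which is printed as 1 run.
IFI27 (chr14:94110613-94110665, plus strand): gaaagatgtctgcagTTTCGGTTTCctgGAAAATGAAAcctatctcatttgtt
IFI6 (chr1:27672261-27672363, minus strand): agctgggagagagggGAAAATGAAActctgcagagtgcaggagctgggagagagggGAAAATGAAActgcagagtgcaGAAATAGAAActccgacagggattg
IFIT1 (chr10:89392492-89392544, plus strand): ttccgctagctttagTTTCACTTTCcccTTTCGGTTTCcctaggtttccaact
IFIT3 (chr10:89327826-89327899, plus strand): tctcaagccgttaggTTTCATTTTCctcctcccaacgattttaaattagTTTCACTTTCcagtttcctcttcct
ISG15 (chr1:1013369-1013414, plus strand): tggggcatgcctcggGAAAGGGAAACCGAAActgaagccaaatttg
IFIT3 had 3.33, 115 and 15.4 CPM and ISG15, a ubiquitin-like modifier, had 6.44, 100 and 17.4 CPM. In IFI27, IFI6, IFIT1, IFIT3 and ISG15 the first match began 108, 156, 116, 156 and 113 bases before the annotated start. Of the 28 varying list members with a promoter, 17 held a match, and of the 5 that did not vary, 4 did. Among varying genes highest in replicate 2 that are not on the list, 23 of 474 held a match (4.85%). Among those highest in replicates 1 and 3 the shares were 2.03% and 1.33%. A match of letters is not a measured binding site.

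Genes of MHC class I antigen presentation, which shows peptides from inside the cell to T cells, included 8 of 16 listed that varied (50%, against 13.5% of all genes), all highest in replicate 2 (6.0% of all genes). PSMB8 and PSMB9 of these 8 are also among the 33 of the interferon list. HLA-B had 54.8, 313 and 90.6 CPM and B2M, the shared light chain, had 281, 563 and 353 CPM. HLA genes are similar in sequence, and how their reads were split is uncertain. NLRC5, the activator of these genes, had 3.33, 19.8 and 13.8 CPM. The ER chaperones CANX and CALR, which fold class I molecules and many other proteins, had 998 ± 143 and 973 ± 113 CPM and did not vary. This list had 5, 1 and 7 varying genes without replicates 1, 2 and 3 in turn.

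Of 18 listed NF-kB and acute phase genes, 8 varied (44.4%, against 13.5% of all genes), and all 8 were highest in replicate 2 (6.0% of all genes). RELA, a subunit of NF-kB, did not vary, with 136, 176 and 154 CPM, and its inhibitor NFKBIA had 92.1, 174 and 111 CPM. TNFAIP2 had 85.2, 142 and 51.4 CPM. The complement genes CFB and C3 were low, at 0.666, 10.3 and 3.64 CPM and at 1.11, 8.34 and 2.02 CPM, and LTB had 10.4, 44.8 and 6.07 CPM. With means of 4.87 and 3.8 CPM, CFB and C3 would by the authors' filter be listed only through the samples not used. The NF-kB list had 6, 1 and 7 varying genes without replicates 1, 2 and 3 in turn.

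ATF4 is the transcription factor through which shortage of amino acids and ER stress turn on synthesis and transport of amino acids. Its own transcript was even, with 1723, 1610 and 1916 CPM. All 32 genes of its list were listed, with a median of 201 CPM, and 14 varied (43.8%, against 13.5% of all genes), all highest in replicate 2 (6.0% of all genes). STC2, a secreted glycoprotein, had 103, 348 and 33.2 CPM. TRIB3, a pseudokinase, had 118, 401 and 92.2 CPM. DDIT4, an inhibitor of mTORC1, had 58.8, 182 and 32.8 CPM and CHAC1, which degrades glutathione, 27.5, 54.2 and 10.5 CPM. ASNS, asparagine synthetase, had 153, 370 and 123 CPM. The more abundant NUPR1, PHGDH and SLC1A5 had 298, 573 and 365 CPM, 290, 482 and 278 CPM and 324, 370 and 284 CPM, with ratios under 2-fold. The ATF4 list had 13, 2 and 8 varying genes without replicates 1, 2 and 3 in turn. The letters TGATGNAA, read on the other strand as TTNCATCA, stand for the element that ATF4 binds with its partners. They were found in the promoters of 8 of 26 matched list members (30.8%), against 1.61% of the 8551 matched genes and 3.67% of all promoters. The 3 matched members with the largest ratios between libraries are shown in the direction of transcription, with the match in capitals.
CHAC1 (chr15:40953246-40953285, plus strand): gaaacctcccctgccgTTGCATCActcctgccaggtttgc
ASNS (chr7:97872453-97872492, minus strand): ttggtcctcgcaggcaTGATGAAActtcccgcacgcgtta
IARS1 (chr9:92293698-92293726, minus strand): ccgcattttcagcgcgTTGCATCAcctcc

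Of 29 heat shock and ER chaperone genes, 5 varied (17.2%, against 13.5% of all genes), all highest in replicate 2 (6.0% of all genes). The median of this list was 152 CPM, and 4.59% of genes of 100 to 300 CPM varied. HSPA5, the main ER chaperone, had 457, 928 and 775 CPM, HERPUD1 41.3, 118 and 49.7 CPM and HYOU1 93.2, 208 and 140 CPM. The cytosolic HSP90AB1 had 4459, 2700 and 4070 CPM and was lowest in replicate 2, as HSP90AA1 was. Of 23 antioxidant genes, 7 varied (30.4%, against 13.5% of all genes), 6 of them highest in replicate 2 (6.0% of all genes). AKR1C1 had 3.996, 11.96 and 11.3 CPM and FTL, the ferritin light chain, 90.6, 270 and 134 CPM. AKR1C2 had 10.7, 24.8 and 10.9 CPM. The chaperone list had 2, 0 and 5 varying genes and the antioxidant list 5, 2 and 3 without replicates 1, 2 and 3 in turn. Of 19 HIF target genes outside glycolysis, 4 varied (21.1%, against 13.5% of all genes). The count became 1, 3 and 4 without replicates 1, 2 and 3 in turn. HILPDA was even, with 110 ± 2.87 CPM, while ADM had 67.3, 30.04 and 16.98 CPM and P4HA2 1.33, 5.84 and 6.87 CPM.

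Cells turn on AP-1 and immediate early genes within minutes of stimulation. The median over this list of log2 CPM minus its mean over the libraries was -0.0783, -0.260 and 0.2325 in replicates 1, 2 and 3. Of 21 listed genes, 9 varied (42.9%, against 13.5% of all genes), 8 of them highest in replicate 3, where 3.73% of all genes varied in that direction. FOSB had 18.0, 10.8 and 58.6 CPM and DUSP1, a phosphatase that switches MAPKs off, had 8.66, 2.503 and 31.1 CPM. KLF6 had 332, 224 and 458 CPM. FOSL1 was the exception, highest in replicate 1. IER2, IER5 and SRF had 903 ± 93.4, 427 ± 48.2 and 286 ± 40.7 CPM and did not vary. The AP-1 list had 8, 6 and 3 varying genes without replicates 1, 2 and 3 in turn.

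Of 26 cholesterol and fatty acid genes, 5 varied (19.2%, against 13.5% of all genes), 3 of them highest in replicate 3 (3.73% of all genes). The median of this list was 84.6 CPM, and 7.87% of genes of 30 to 100 CPM varied. MVK had 77.7, 56.2 and 134 CPM and SC5D 46.8, 16.1 and 36.0 CPM. This list had 4, 1 and 2 varying genes without replicates 1, 2 and 3 in turn.

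Of the 12 keratins outside the luminal class, 10 varied (83.3%, against 13.5% of all genes), 6 of them highest in replicate 1 (3.73% of all genes). This list of 12 had 3, 5 and 6 varying genes without replicates 1, 2 and 3 in turn. Of the luminal keratins, KRT8 alone varied (2.18-fold), and 0, 0 and 1 did without replicates 1, 2 and 3 in turn. Of the replication and mitosis lists 5 of 42 genes (11.9%) and 2 of 42 (4.76%) varied, both under the 13.5% of all genes. Their medians were 57.9 and 111 CPM, and genes of such levels varied less often than all genes. The share was 7.87% for genes of 30 to 100 CPM and 4.59% for those of 100 to 300 CPM. The 7 varying genes of these lists were highest in replicate 1, where 3.73% of all genes varied in that direction. UHRF1 had 19.3, 6.40 and 9.30 CPM, CCNE2, which encodes cyclin E2, 27.3, 10.01 and 16.6 CPM and TK1 120, 55.1 and 112 CPM. DLGAP5 and KIF20A, which act at the spindle, had 46.6, 17.8 and 45.7 CPM and 43.5, 20.6 and 36.0 CPM. Replicate 2 was the lowest library for each of these 5 genes. TUBB2A had 64.8, 17.8 and 50.5 CPM, TFRC, the transferrin receptor, 209, 95.4 and 146 CPM and TUBB4B, which was highest in replicate 3, 685, 365 and 777 CPM. The replication list had 1, 1 and 5 varying genes and the mitosis list 1, 0 and 2 without replicates 1, 2 and 3 in turn.

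Of 16 listed MAPK feedback and target genes, 6 varied (37.5%, against 13.5% of all genes), and the count became 2, 4 and 3 without replicates 1, 2 and 3 in turn. DUSP7, a MAPK phosphatase, had 16.6, 8.62 and 4.85 CPM, after FOSL1 and EPHA2. Of the RAS and MAPK core, 2 of 22 genes varied (9.09%), SPRED2 with 9.77, 8.62 and 3.64 CPM and NRAS with 62.8, 45.6 and 26.7 CPM, and 0, 2 and 0 varied without replicates 1, 2 and 3 in turn. Of the WNT, NOTCH and adhesion receptors, 2 of 30 varied (6.67%), ITGA2 with 11.99, 9.18 and 20.6 CPM and ITGB6 with 28.6, 33.4 and 61.5 CPM, and 1, 1 and 0 varied without replicates 1, 2 and 3 in turn. Of the PI3K, AKT and mTOR core, 4 of 28 varied (14.3%), and 1, 4 and 2 did without replicates 1, 2 and 3 in turn. SGK1 had 17.8, 2.23 and 8.49 CPM, PIK3CD 3.77, 20.03 and 14.2 CPM and PIK3CA 8.66, 11.1 and 20.6 CPM. Of 22 tumour suppressors and cell cycle inhibitors, RASSF1 and CDKN2D varied (9.09%), and 1, 1 and 0 genes did without replicates 1, 2 and 3 in turn. Of the 19 glycolytic genes, HK2, with 12.9, 17.8 and 2.83 CPM, and the lactate transporter SLC16A1 varied (10.5%), and 2, 1 and 0 genes did without replicates 1, 2 and 3 in turn. Of the 24 genes of that list of the BCL2 family and related genes, 5 varied (20.8%), among them the apoptosis inducers HRK, BIK and BBC3, with 4.88, 9.73 and 2.02 CPM, 6.88, 3.89 and 15.8 CPM and 10.7, 41.4 and 25.5 CPM. That count became 3, 4 and 2 without replicates 1, 2 and 3 in turn. Of the S100, YAP and TEAD, and reference gene lists, 4 of 12 (33.3%), 4 of 22 (18.2%) and 5 of 22 genes (22.7%) varied. The share over all genes was 13.5%. The counts of these lists became 2, 1 and 2, 2, 2 and 2, and 2, 1 and 3 without replicates 1, 2 and 3 in turn. Of the 12 genes around EGFR, ZNF713 alone varied (8.33%), and 0, 0 and 1 did without replicates 1, 2 and 3 in turn.

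**Figure D5:**
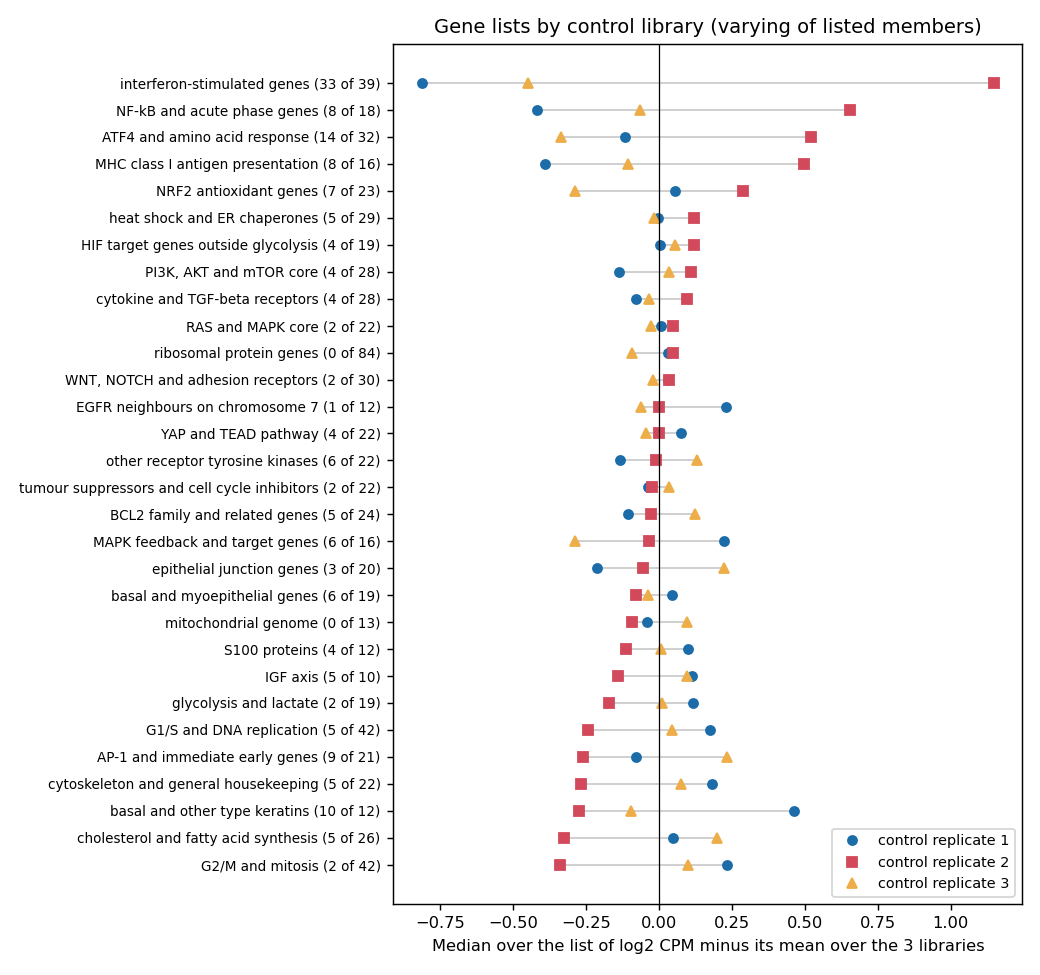
Median over each gene list of log2 CPM minus its mean over the 3 control libraries, 1 point per library, for lists of 10 or more listed genes. The number of varying members is given in brackets. The interferon list had medians of -0.813, 1.15 and -0.450 in replicates 1, 2 and 3, while the ribosomal protein and WNT lists lay near 0, and which library was highest for these 2 lists changed with the scaling.

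Of the 3 listed ERBB receptors, ERBB2 varied (2.35-fold), and of the 4 ligands AREG (2.91-fold), HBEGF (2.36-fold) and BTC (3.27-fold) varied, which is 33.3% and 75% of these short lists, against 13.5% of all genes. The receptor count became 0, 0 and 1 and the ligand count 1, 2 and 2 without replicates 1, 2 and 3 in turn. Of 10 listed genes of the IGF axis, 5 varied (50%, against 13.5% of all genes), among them IGFBP6 (8.14-fold), INSR (4.44-fold) and IGFBP5, and 3, 2 and 4 varied without replicates 1, 2 and 3 in turn. Of the other 22 receptor tyrosine kinases, 6 varied, and EPHB2 had the largest ratio, with 7.10, 10.6 and 2.02 CPM, before EPHA2 and EPHA4 (3.38-fold). The count of 6 (27.3%, against 13.5% of all genes) became 5, 5 and 1 without replicates 1, 2 and 3 in turn. Of the cytokine and TGF-beta receptors, 4 of 28 varied (14.3%, near the share of all genes), among them ACVR1 (3.78-fold), ACVR2B (3.24-fold) and IL7R (2.94-fold). The count became 3, 0 and 2 without replicates 1, 2 and 3 in turn. Among lineage lists, 4 of 9 luminal, 3 of 20 junction, 6 of 19 basal, 4 of 7 mesenchymal and 6 of 9 secretory genes varied, which is 44.4%, 15%, 31.6%, 57.1% and 66.7%, against 13.5% of all genes. The share of the junction genes was near that of all genes, but their median was 71.3 CPM, and 7.87% of genes of 30 to 100 CPM varied. Without replicate 1 these counts were 3, 0, 4, 2 and 4, without replicate 2 they were 1, 2, 4, 3 and 2, and without replicate 3 they were 2, 1, 3, 1 and 3. The largest ratios were those of KIT (2.76-fold), CLDN1 (2.23-fold), KLK7 (14.8-fold, at 3.996, 11.96 and 0.809 CPM), VIM (4.70-fold) and LCN2 (6.14-fold) in the luminal, junction, basal, mesenchymal and secretory lists. CRYAB (7.18-fold) and OXTR (4.84-fold) followed in the basal list.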

How the data were processed

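Total RNA of the control MDAMB468 cells was sequenced from the 3′ end (QuantSeq), with 3 libraries described as biological replicates. The authors used bbduk for trimming, STAR on the hg38 build for alignment and HTSeq 0.9.1 for reads per gene. After normalization with edgeR by the authors, they kept genes whose average exceeded 5 CPM under either condition. The deposited values are on the log2(CPM + 1) scale. From these deposited log2 values CPM was recovered as 2 to the power of the value less the pseudocount of 1. In each library 100% of CPM values were whole multiples of a single step within 1e-06, which gave reads per gene. Depth here means reads on the listed genes, 2497353 to 4579587 per library.

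With 3 libraries of a single group, no test between groups was run and no p-value is given. Means are given with the SD over 3 libraries. A gene was called varying by a ratio of size and counting intervals, in Python 3.11.15 with scipy 1.17.1. Symbols and positions came from GENCODE 44 (GRCh38), and 10462 of 10487 identifiers matched. Promoters came from RefSeq (8551 genes matched). In all, 38 gene lists were used, with 842 genes in 884 entries, of which 653 genes were listed. Some genes stand in more than 1 list, among them the varying DDIT4, XBP1, LCN2, FOSL1, EPHA2, KIT and VGLL1. The counts of such lists are therefore not separate observations. The members and lists were chosen with earlier results of these data known. Genes named are the 5 markers, the 20 most abundant genes, the 4 most abundant and the varying members with the 3 largest ratios of each list, known defining genes, and the 10 largest and 10 smallest ratios at 100 CPM or more. Other genes named in the text, such as PSPH, IGF1R, IFIT3, ISG15, ASNS and EEF1A1, were chosen after their values were seen. Alternatives covered scaling, filters, fold, interval, thinning and each library left out. The counts of varying members of single lists without a library were added after the data were seen. Some genes that fall under the rule for named genes are not reported here.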

Additional observations from a re-analysis of the deposited data

How the results depend on the processing

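The median CV of 19.5% was 19.1% for genes of 5 CPM or more, 16.6% for genes of 20 CPM or more and 20.04% with the libraries thinned to the shallowest. The 1411 varying genes were 533 at 20 CPM or more, 3254 at over 1.5-fold and 476 at over 3-fold. Leaving out each library, which leaves 2 to differ, gave 570 to 727 varying genes and a median CV of 15.7% to 16.2%. The 33 varying genes of the interferon list became 4 to 31, and the 4 were without replicate 2. Without mitochondrial genes, the 100 most abundant genes held 24.7% of reads and ribosomal protein genes 15.04%. The ratio of luminal to other keratins was 1.54 and became 2.35 for KRT8 and KRT18 against KRT5, KRT14 and KRT17. The other 73 of 89 values stayed within 1 SD between libraries or, for counts, within 1.5 times. Among them were the levels of EGFR, IGFBP2, IGFBP5, DCD and KRT18. Leaving out 1 of 3 libraries cannot move a mean by as much as 1 SD. For means, this limit therefore does not show stability when a library is left out. The level of IGFBP5, 156 CPM, became 109, 203 and 155 CPM without replicates 1, 2 and 3 in turn. Scaling shifted a library by at most 0.0262 on the log2 scale, and it changed the highest library of 2 of 30 lists. No paired analysis was possible because a single group was described. Reads on the listed genes limit what could be seen: 376 genes had under 10 reads in replicate 3.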

Other observations

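Several genes on none of the lists also differed widely between control libraries. They were chosen after their values were seen. GDF15, a secreted stress cytokine, had 5.77, 117 and 1.21 CPM, a 96.3-fold ratio. TNFSF10, which encodes the death ligand TRAIL, had 0.444, 22.8 and 14.6 CPM. IFNL1, a type III interferon, had 3, 47 and 5 reads in replicates 1, 2 and 3, or 0.666, 13.1 and 2.02 CPM. Of genes highest in replicate 3, MAOA, which degrades amine transmitters, had 2.66, 0.556 and 19.4 CPM and ADAMTS5, a protease of the matrix, had 4.88, 2.23 and 48.5 CPM.

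The 325 listed long noncoding RNAs held 1.28% ± 0.0854 of reads (SD, n = 3). After MALAT1, the most abundant were ZFAS1, with 721, 1167 and 651 CPM, SNHG32, with 390, 835 and 372 CPM, SNHG25, with 406, 483 and 556 CPM, and MIR4435-2HG, with 380, 404 and 357 CPM. CYTOR was even, with 187, 178 and 178 CPM, and NEAT1, which builds nuclear paraspeckles, had 234.6, 122 and 313 CPM.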
